A study of Mus musculus with 12 samples.

Results

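The kidney genes that carry urea and the organic osmolytes inositol, taurine and betaine across cell membranes were followed here, together with the transcription factor that answers to hypertonicity. The 6 genes were taken from a written list: Slc14a1 and Slc14a2 (urea), Slc5a3 (inositol), Slc6a6 (taurine), Slc6a12 (betaine) and Nfat5. Every probe set that names 1 of them alone was used and kept apart, which gave 18 probe sets of the 34945 with a single gene symbol, or 6 of 18193 genes. All 18 are described, and 17 of the 27748 probe sets that passed a brightness filter belong to them. The values came from 12 Affymetrix mouse arrays in 6 groups of 2. The groups were organoids formed in 3D Matrigel, progenitor cells cultured on a layer of fibroblast feeder cells, and kidney tissue, each derived from mouse medulla and from mouse cortex. The labels give no strain, age or genotype, call the replicates biological, and leave unstated whether samples with the same replicate number came from the same mouse. The p-values measure the spread between these samples, and the feeder layer is a possible source of RNA in the progenitor samples.

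The inner part of the mammalian kidney, the medulla, is kept hypertonic by salt and urea so that urine can be concentrated. The urea transporter family of Slc14a1 (UT-B, known from red blood cells and the vessels called descending vasa recta) and Slc14a2 (UT-A, known from the inner medullary collecting duct and the thin descending limb of Henle) moves urea within the medulla. Cells exposed to hypertonicity take up inositol through Slc5a3 (SMIT1), taurine through Slc6a6 (TauT) and betaine through Slc6a12 (BGT1), and these genes are known targets of the transcription factor NFAT5 (TonEBP), which binds a tonicity element (TonE).

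The RefSeq promoter table for build GRCm38.p6 held windows of 250 bases before to 50 bases after the annotated start for Slc6a12 (5 windows), Slc5a3 (1) and Nfat5 (1). The TonE consensus was searched on both strands. It was found in 1 of the 5 Slc6a12 windows, at positions -75 to -65 from that start, and in neither the Slc5a3 nor the Nfat5 window. The consensus was held by 4.96% of all 32851 windows, and 21.4% of them held its core TGGAAA on either strand, a motif that the consensus contains. The bases before the start are shown for that Slc6a12 window, with the match in capitals, and for Slc5a3, which holds no match and whose start lies 14 bases before that of the overlapping gene Mrps6 (windows that share 286 bases). The first lies at chr6:121342324-121342573 and the second at chr16:92058072-92058321, both on the plus strand.
Slc6a12: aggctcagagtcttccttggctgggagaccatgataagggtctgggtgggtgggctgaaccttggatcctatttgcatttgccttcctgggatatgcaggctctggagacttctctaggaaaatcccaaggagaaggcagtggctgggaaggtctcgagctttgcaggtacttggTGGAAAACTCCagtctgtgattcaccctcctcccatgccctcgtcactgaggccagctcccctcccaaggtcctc
Slc5a3: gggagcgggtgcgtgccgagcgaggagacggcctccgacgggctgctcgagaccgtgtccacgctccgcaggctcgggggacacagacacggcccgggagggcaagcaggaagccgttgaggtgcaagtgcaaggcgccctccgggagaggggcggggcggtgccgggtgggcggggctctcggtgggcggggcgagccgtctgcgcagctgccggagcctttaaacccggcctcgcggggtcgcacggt

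The values are log2 signals as deposited. The array medians lay between 5.86 and 6.53, which gives a scale for what is bright on these arrays. The organoid arrays stood apart in the poly-A controls, bacterial transcripts added before labelling. The median of these controls was 7.96 to 8.83 on tissue arrays, 7.03 to 7.37 on progenitor arrays and 1.21 to 1.88 on organoid arrays, so that whatever set these controls apart and the organoid stage cannot be told apart. The Gapdh control's 3' probe set exceeded its 5' probe set by an amount that lay between -0.23 and 0.18 in tissue, between -0.41 and -0.30 in progenitor cells and between 0.87 and 1.67 in organoids. For the actin control the same amount was highest in tissue, at 0.94 to 1.63, against 0.16 to 0.19 in progenitor cells and 0.00 to 0.15 in organoids. The median absolute difference between replicates was 0.459 log2 units in medulla organoids and 0.150 to 0.256 in the other 5 groups. Markers of collecting duct principal cells (8 of 8) were above the array median in tissue of both regions, with summed signals of 22302 to 33838 in medulla and 19164 to 21627 in cortex. In the cultures the number above the array median on both arrays was 4 of 8 in medulla organoids, 3 in cortex organoids, 4 in medulla progenitor cells and 2 in cortex progenitor cells. Aqp2 and Aqp3 were among those that were not, in all 4 culture groups.

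In tissue, the urea transporter Slc14a2 differed most between regions. Its probe set 1425250_a_at had the largest difference between medulla and cortex of all 27748 tested probe sets, and an Slc5a3 probe set was also higher in medulla. In progenitor cells, set against tissue, Slc5a3 was lower by every probe set, and the urea and taurine transporters by some of theirs. Nfat5 was higher there by most of its probe sets, mostly ones that were dim in tissue. In organoids, set against progenitor cells, 7 probe sets of Slc5a3, Slc6a6 and Nfat5 rose by more than 3 log2 units while other probe sets of the same 3 genes moved by at most 0.99. Slc6a12 stayed below the median of every array.

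**Figure D1:**
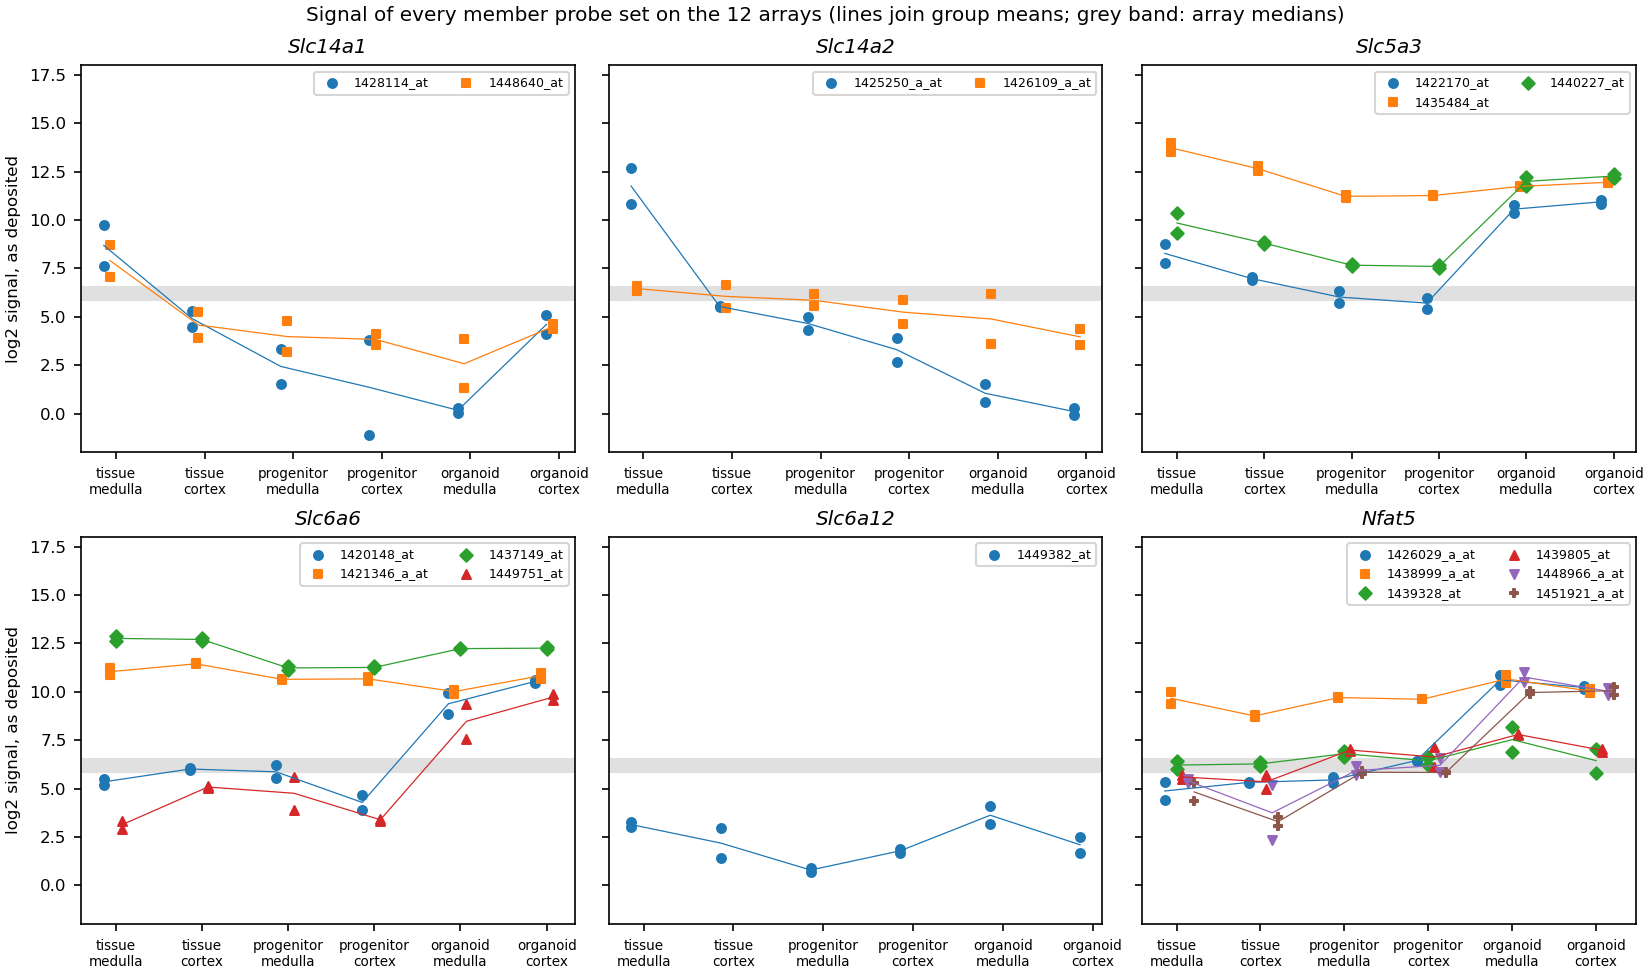
Deposited log2 signal (vertical axis) of every probe set of the 6 genes in the 6 groups (horizontal axis, 2 points per group and probe set, lines joining group means, grey band the range of array medians). Slc14a2 1425250_a_at reaches 12.69 and 10.83 on the tissue medulla arrays, and Slc6a12 stays below the grey band on all 12 arrays.

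Differences were fitted with limma on log2(signal + offset), a scale that understates changes of dim probe sets, and were called at an adjusted p under 0.05 over all 27748 tested probe sets. A stage difference has 4 arrays on each side and a region difference 2. In progenitor cells against tissue 5 member probe sets were higher and 8 lower of 17 (percent called over all tested probe sets: 37.4% higher, 29.3% lower, 66.7% either way). The median difference of these 17 was -0.55, against 0.14 for all tested probe sets. Organoids against progenitor cells gave 10 higher and 1 lower (34.9%, 36.8% and 71.7%), with medians of 0.68 and -0.07. In organoids against tissue 9 were higher and 7 lower (41.8%, 37.5% and 79.3%), with medians of 1.12 and 0.09. Most probe sets of these arrays were called between stages, and the counts over the members are to be read against that background. These 3 comparisons share arrays. In the first of them 4 of 8 fibroblast and feeder markers were called higher and 3 lower. Their summed signal was 11820 to 13641 in medulla and 9401 to 9572 in cortex progenitor cells. In tissue it was 5097 to 8187 in medulla and 3754 to 7001 in cortex. The part of feeder cells in the member differences was not tested. The 17 passed the filter by different routes: the 4 of Slc14a1 and Slc14a2 only through tissue medulla, 4 (2 of Slc6a6, 2 of Nfat5) only through organoids, and 9 through several stages. Those 8 were tested because they were bright in tissue medulla or in organoids alone, so no count over the 17 is evidence by itself. Tested without the brightness filter, every call of the 17 in the 8 comparisons was kept.

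In tissue 2 member probe sets were called higher in medulla and 0 lower, against 0.151% and 0.0108% of all tested probe sets (0.162% either way), and 9 had an unadjusted p under 0.05. That count depended on single arrays. It was 6 without medulla tissue replicate 2 and 4 without either medulla organoid replicate. It was 1 without medulla tissue replicate 1, or without either replicate of cortex tissue, cortex progenitor cells or cortex organoids. In progenitor cells 0 of 17 were called between regions by limma (0.169% of all, 0.151% higher and 0.018% lower), and 2 had an unadjusted p under 0.05. In organoids 1 was lower in medulla and 0 higher (7.18%, 6.21% and 13.4% either way). The organoid count was 5 without medulla organoid replicate 2, 2 without either medulla tissue replicate, and 0 without cortex organoid replicate 1.

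**Figure D2:**
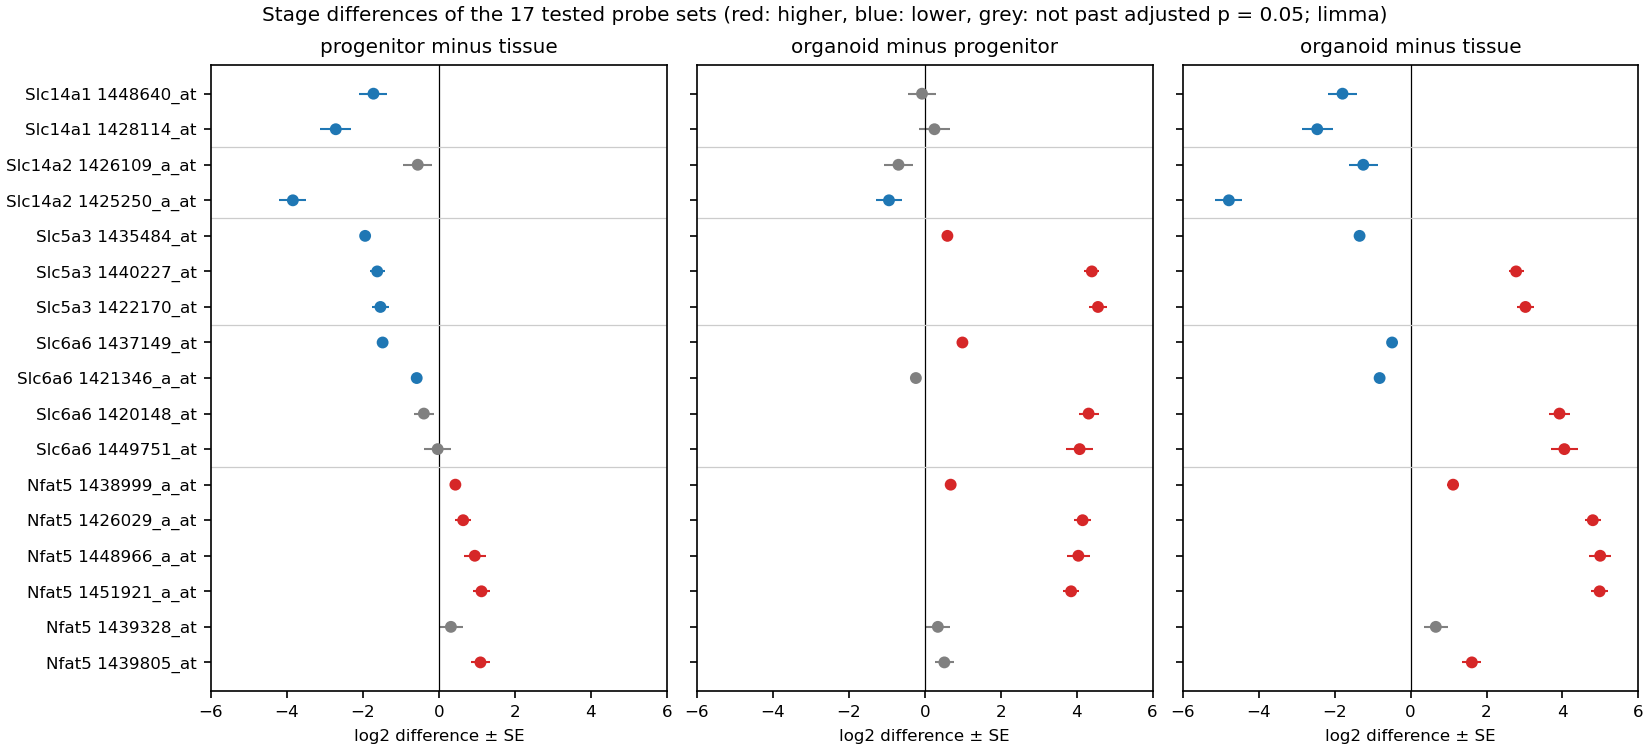
Log2 differences with their SE (horizontal axis) of the 17 tested probe sets (rows, grouped by gene) in 3 stage comparisons (panels), red where higher, blue where lower and grey where not past the threshold. The 7 points beyond 3 in the middle panel belong to Slc5a3, Slc6a6 and Nfat5.

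Slc14a2 encodes the UT-A urea transporters. Probe set 1425250_a_at had log2 signals of 12.69 and 10.83 on the medulla tissue arrays, against 5.57 and 5.49 on the cortex tissue arrays. In progenitor cells it had 4.29 and 5.01 in medulla, against 2.68 and 3.92 in cortex. In organoids it had 1.51 and 0.58 in medulla, against 0.29 and -0.08 in cortex. Only the medulla tissue arrays were above the array median, and neighbouring groups in the order of the means did not overlap. The tissue difference of 5.82 ± 0.50 (SE), a 56.6-fold higher signal plus offset, ranked first of 27748 (adjusted p = 0.000482, limma). The probe set was among those tested only because it was bright in medulla tissue, the group that makes this difference, and without the brightness filter its adjusted p was 0.000805. Fitted on the tissue arrays alone, with fewer samples behind the spread, the same difference had an adjusted p of 0.0988. In bulk samples such as these, fewer cells of a type and less RNA per cell cannot be told apart.

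The regional difference of Slc14a2 1425250_a_at was smaller in progenitor cells than in tissue. It was 0.67 ± 0.50 in progenitor cells and 0.09 ± 0.50 in organoids, and the progenitor region difference minus the tissue region difference was -5.16 ± 0.71 (adjusted p = 0.0143, limma), the second lowest of all tested probe sets. This was the only 1 of 17 member probe sets called in that comparison, lower, against 0.0649% of all tested probe sets called lower, 0.0901% called higher and 0.155% either way. It too rests on a probe set admitted through medulla tissue alone, and its adjusted p without the brightness filter was 0.0255. With an offset of 1 its adjusted p was 0.181, and without a variance trend 0.0634. Its adjusted p was 0.0934 and 0.0769 without cortex tissue replicate 1 or 2, 0.0835 and 0.0929 without cortex progenitor replicate 1 or 2, and 0.107 and 0.0783 without medulla progenitor replicate 1 or 2. Without medulla tissue replicate 2 the count of members called was 3, with Slc14a1 1428114_at (-4.28, adjusted p = 0.0193) and Slc5a3 1435484_at (-1.37, adjusted p = 0.015) added. Between the organoid and the progenitor region differences limma called 0 of 17 members (2.32% of all, 1.01% higher and 1.32% lower), and 4 had an unadjusted p under 0.05. The largest was that of Slc6a6 1420148_at (-2.21 ± 0.53, adjusted p = 0.0522). That probe set was tested only because it was bright in organoids, and it shares its source sequence with 1449751_at. Its region difference was -1.13 ± 0.37 in organoids and 1.08 ± 0.37 in progenitor cells. The progenitor signals were dim, with 5.52 and 6.21 in medulla, against 4.65 and 3.92 in cortex. The value of -2.21 thus rests in part on a difference between dim signals. It was called under quantile normalization (-2.28, adjusted p = 0.0413), 75th percentile scaling (-2.20, 0.0465), and without medulla organoid replicate 1 (-1.67, 0.0392) or 2 (-2.75, 0.00319). A second Slc6a6 probe set was then called too: 1421346_a_at without replicate 1 (-0.89, adjusted p = 0.036) and 1449751_at without replicate 2 (-2.83, 0.00852).

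Averaged over both regions, Slc14a2 1425250_a_at fell by 3.84 ± 0.35 in progenitor cells against tissue (adjusted p = 8.96e-07). Without the brightness filter, which it passed through medulla tissue alone, the adjusted p was 1.57e-06 (limma). The probe set fell by 0.94 ± 0.35 in organoids against progenitor cells (adjusted p = 0.0306, and 0.0485 without the filter), a call between dim signals. Its adjusted p was 0.377 with the median signal as offset. It was 0.0985 without cortex progenitor replicate 2, 0.0963 without medulla progenitor replicate 2, and 0.0668 and 0.0696 without cortex organoid replicate 1 or 2. Its second probe set, 1426109_a_at, behaved otherwise. It had 6.35 and 6.57 in medulla tissue, against 5.45 and 6.66 in cortex tissue, and did not pass between regions (0.32 ± 0.55, adjusted p = 0.989). Across the other groups it read from 3.54 to 6.18, and the only stage call was in organoids against tissue (-1.25 ± 0.39, adjusted p = 0.0104, and 0.0514 without cortex tissue replicate 2). Without medulla organoid replicate 2 it was also lower in organoids against progenitor cells (-1.11, adjusted p = 0.00904, and -0.69 ± 0.39, adjusted p = 0.127, on all arrays). Which UT-A transcripts each probe set measures was not analysed here.

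Slc14a1 encodes UT-B and lies next to Slc14a2 in the GRCm38.p6 gene order. Probe set 1428114_at had 9.75 and 7.63 in medulla tissue, against 4.49 and 5.31 in cortex tissue. Probe set 1448640_at had 8.73 and 7.08 in medulla tissue, against 3.92 and 5.23 in cortex tissue. Both medulla arrays lay above both cortex arrays for each, yet neither difference was called: 3.25 ± 0.58 (adjusted p = 0.0597) and 2.69 ± 0.52 (adjusted p = 0.0875). Without medulla tissue replicate 2 the differences were 4.27 (adjusted p = 0.00323) and 3.46 (0.0126), and both were also called without medulla organoid replicate 1 (0.0408 and 0.045) or 2 (0.0398 and 0.0456). Probe set 1428114_at alone was called under quantile normalization (3.44, adjusted p = 0.0471) and 75th percentile scaling (3.26, 0.0487).

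In culture Slc14a1 was below the array median on all 8 arrays. Probe set 1448640_at read 3.19 to 4.76 in progenitor cells and 1.30 to 4.62 in organoids, and 1428114_at read -1.11 to 3.81 and 0.04 to 5.09. Against tissue, both were lower in progenitor cells (1448640_at by -1.72 ± 0.37, adjusted p = 0.00122, and 1428114_at by -2.71 ± 0.41, adjusted p = 7.63e-05). They were also lower in organoids against tissue (-1.79 ± 0.37 and -2.46 ± 0.41). Averaged over both regions, organoids and progenitor cells did not differ detectably (-0.07 ± 0.37 and 0.26 ± 0.41, adjusted p = 0.871 and 0.587). Both medulla organoid arrays lay below both cortex organoid arrays, the reverse of tissue, without a call and between dim signals. Probe set 1428114_at had 0.04 and 0.30, against 4.11 and 5.09 (-1.30 ± 0.58, adjusted p = 0.165). Probe set 1448640_at had 1.30 and 3.85, against 4.36 and 4.62 (-0.72 ± 0.52, 0.401). In progenitor cells the regions overlapped.

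Some cell type markers moved with these tissue differences and others did not. Medulla replicate 1 was the higher of its pair in both Slc14a1 probe sets and in Slc14a2 1425250_a_at. It was also the higher one in the thin limb markers Bst1 (9.99 and 8.13 in medulla, against 6.36 and 6.43 in cortex), Fst (10.22 and 8.61, against 6.02 and 7.24) and Cryab (13.60 and 12.33, against 11.32 and 11.88). Over the 6 measured thin limb markers of 8 listed the summed signal was 25820 to 39707 in medulla, against 20949 to 23565 in cortex, and 2 (Bst1 and Fst) were called higher in medulla. Cryab (1.36 ± 0.31), Aqp1 (0.22 ± 0.30), Cldn10 (0.29 ± 0.26) and Cldn4 (0.26 ± 0.23) were not called between the tissue regions. Of the collecting duct principal cell markers 0 of 8 were called there (median 0.30). In culture the summed signal of the 6 thin limb markers was 14765 to 16441 in organoids and 34904 to 41094 in progenitor cells. In progenitor cells against tissue 4 of the 6 were called higher and 2 lower (median 1.90). Cldn4 (4.29 ± 0.16), Fst (4.18 ± 0.30), Bst1 (2.11 ± 0.29) and Cryab (1.70 ± 0.22) were higher. Aqp1 (-6.13 ± 0.21) and Cldn10 (-5.82 ± 0.19) were lower. With markers of 1 list moving both ways, the culture sum is not read as an amount of thin limb cells. The urothelial and basal markers ran the other way within the pair, with Upk1b at 8.09 and 8.93 in medulla, against 4.46 and 4.88 in cortex. Summed over 8 such markers the signal was 951 to 1998 in medulla, against 281 to 315 in cortex, and 1 of 7 tested (Upk1b) was called.

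Markers listed for cells known to carry UT-B were read too. Endothelial markers summed to 8904 to 12362 in medulla tissue, against 6864 to 10374 in cortex tissue, with 0 of 8 called. In the cultures none of the 8 reached the array median on both arrays of a group, and the sums were 50 to 202 in organoids and 152 to 260 in progenitor cells. The 4 measured erythroid markers of 8 listed summed to 1705 to 2714 in medulla tissue, against 1311 to 1331 in cortex tissue, and Hba-a1 and Epb42 were below the array median in both. The brightest of the 4 was Slc4a1, with 11.24 and 10.54 in medulla tissue, against 10.07 and 10.07 in cortex tissue. These tissue sums mostly follow that 1 gene and are not read as an amount of red blood cells. In cultures the erythroid sum was 64 to 108 in organoids and 23 to 49 in progenitor cells. The part of these cell types in the Slc14a1 and Slc14a2 differences was not tested.

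**Figure D3:**
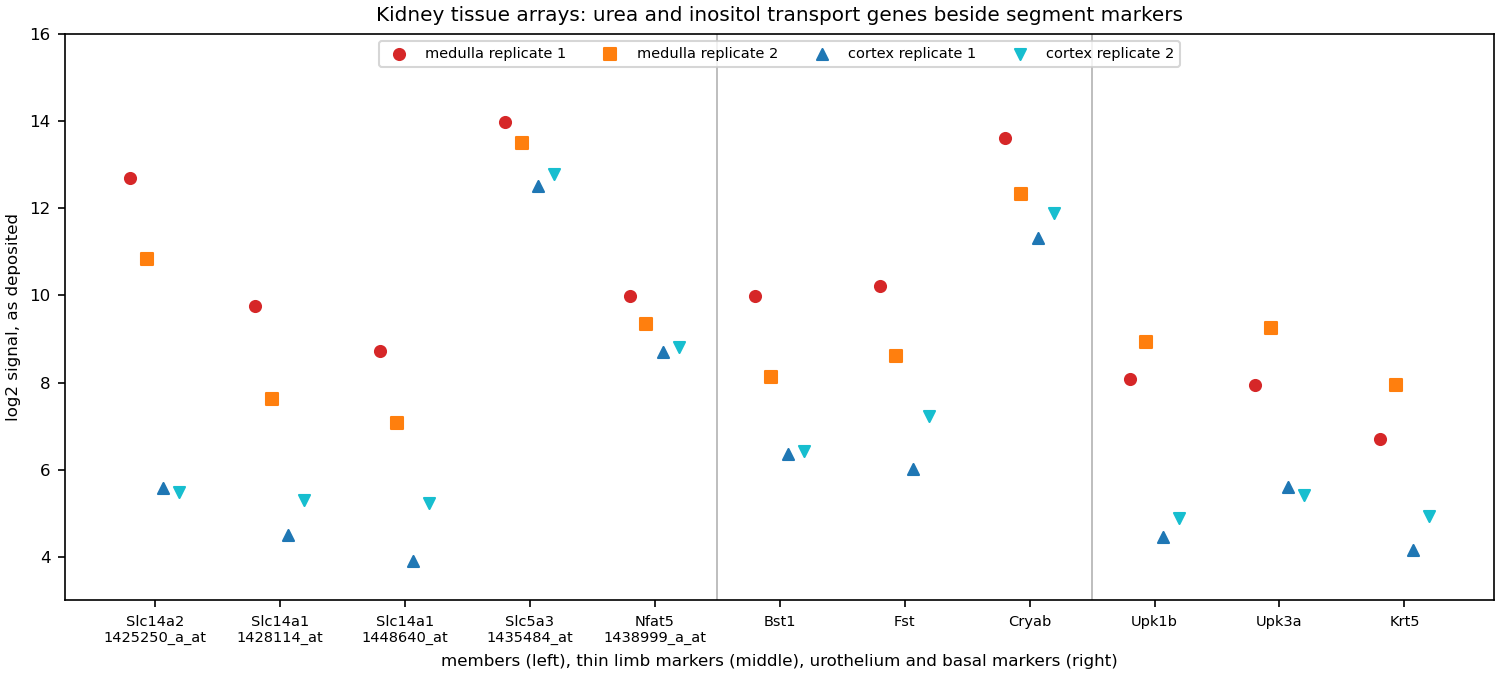
Deposited log2 signals (vertical axis) on the 4 tissue arrays (2 medulla, 2 cortex) for 5 member probe sets, 3 thin limb markers and 3 urothelial or basal markers (horizontal axis). Medulla replicate 1 lies above replicate 2 for the members and thin limb markers and below it for the urothelial and basal markers. Most collecting duct markers, not drawn, also had replicate 1 above replicate 2.

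Slc5a3 encodes the sodium-dependent inositol transporter SMIT1. By all 3 of its probe sets every tissue array lay above every progenitor array, while the place of the organoids differed between probe sets. Probe set 1435484_at had 13.98 and 13.49 in medulla tissue, against 12.52 and 12.78 in cortex tissue. It had 11.28 and 11.16 in medulla progenitor cells, against 11.24 and 11.30 in those of the cortex, and 11.77 and 11.71 in medulla organoids, against 11.99 and 11.91 in cortex organoids. The 3 stages did not overlap, tissue being highest and progenitor cells lowest.

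The tissue difference between regions of 1435484_at was 1.08 ± 0.16 (2.12-fold, adjusted p = 0.0185, rank 369 of 27748 from the top). The call was near the threshold. Its adjusted p was 0.387 when the tissue arrays were fitted alone and 0.146 without a variance trend. It was 0.291 and 0.0603 without cortex tissue replicate 1 or 2, 0.113 without medulla tissue replicate 1, 0.0534 without either cortex progenitor replicate, and 0.0711 without either cortex organoid replicate. The other probe sets had like differences with larger errors, 1.02 ± 0.28 for 1440227_at (adjusted p = 0.269) and 1.21 ± 0.32 for 1422170_at (adjusted p = 0.245), and both medulla arrays lay above both cortex arrays for each. Without medulla tissue replicate 2 the difference of 1440227_at was called (1.54, adjusted p = 0.0109).

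Probe set 1440227_at had 10.37 and 9.32 in medulla tissue, against 8.75 and 8.85 in cortex tissue. It had 7.63 and 7.71 in medulla progenitor cells, against 7.52 and 7.68 in those of the cortex, and 12.25 and 11.74 in medulla organoids, against 12.18 and 12.36 in cortex organoids. For this probe set the organoids were highest, above every tissue array. Probe set 1422170_at, with 6.89 to 8.75 in tissue, 5.42 to 6.31 in progenitor cells and 10.35 to 11.05 in organoids, showed the same order of stages.

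In progenitor cells against tissue all 3 fell together, by 1.94 ± 0.11 (adjusted p = 1.08e-08), 1.62 ± 0.20 and 1.54 ± 0.23 for 1435484_at, 1440227_at and 1422170_at. Against progenitor cells, organoids showed a rise of all 3, but by unequal amounts: 0.60 ± 0.11 for 1435484_at (adjusted p = 0.000392), 4.40 ± 0.20 for 1440227_at (2.4e-09) and 4.56 ± 0.23 for 1422170_at (5.16e-09). Set against tissue, the organoids were therefore lower by 1435484_at (-1.34 ± 0.11) and higher by the other probe sets (2.78 ± 0.20 and 3.02 ± 0.23). The direction of Slc5a3 in organoids against tissue thus depends on the probe set.

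Slc5a3 overlaps the protein-coding gene Mrps6, a mitochondrial ribosomal protein gene, in the GRCm38.p6 annotation. Mrps6 was looked at after its values had been seen. Its probe set 1424440_at had 12.62 and 11.81 in medulla tissue, against 11.23 and 11.30 in cortex tissue (0.95 ± 0.21, adjusted p = 0.136), and 1447585_s_at differed by 0.90 ± 0.17 (adjusted p = 0.075). In progenitor cells against tissue they fell by 0.85 ± 0.15 and 0.84 ± 0.12. Between organoids and progenitor cells they differed by 0.13 ± 0.15 (adjusted p = 0.433) and 0.51 ± 0.12 (adjusted p = 0.00204), without a rise over 3.

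Slc6a6 encodes the taurine transporter. Probe set 1437149_at had 12.63 and 12.88 in medulla tissue, against 12.64 and 12.77 in cortex tissue. It had 11.15 and 11.32 in medulla progenitor cells, against 11.31 and 11.21 in those of the cortex, and 12.24 and 12.22 in medulla organoids, against 12.33 and 12.19 in cortex organoids. The regions overlapped in every stage and the stages did not overlap. This probe set was not called between regions in tissue (0.05 ± 0.13, adjusted p = 0.995). By the other 3 both medulla tissue arrays lay below both cortex tissue arrays, without a call: 1421346_a_at differed by -0.41 ± 0.16 (adjusted p = 0.552), 1420148_at by -0.51 ± 0.37 (0.886) and 1449751_at by -1.03 ± 0.51 (0.685).

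Probe set 1421346_a_at read 10.85 to 11.46 in tissue, 10.56 to 10.77 in progenitor cells and 9.91 to 10.97 in organoids. Probe sets 1420148_at and 1449751_at carry the same source sequence in the platform annotation and so are not independent. The first read 5.19 to 6.08 in tissue, 3.92 to 6.21 in progenitor cells and 8.83 to 10.61 in organoids. The second read 2.92 to 5.11, 3.34 to 5.62 and 7.58 to 9.86 in the same order. By both, every organoid array lay above every other array.

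In progenitor cells against tissue 1437149_at fell by 1.48 ± 0.09 (adjusted p = 2.25e-08) and 1421346_a_at by 0.58 ± 0.12 (adjusted p = 0.000681), while the other pair did not pass (-0.39 ± 0.26 and -0.03 ± 0.36). Against progenitor cells, in organoids 1437149_at rose by 0.99 ± 0.09 (adjusted p = 1.01e-06), 1420148_at by 4.32 ± 0.26 (2.73e-08) and 1449751_at by 4.08 ± 0.36 (6.79e-07). Those last 2 were tested only because they were bright in organoids, and without the brightness filter their adjusted p was 2.65e-08 and 9.86e-07. Probe set 1421346_a_at did not pass there (-0.23 ± 0.12, adjusted p = 0.0888), and was lower under quantile normalization (-0.29, 0.041), 75th percentile scaling (-0.36, 0.0154) and without medulla organoid replicate 1 (-0.28, 0.0404). Against tissue, organoids were lower by 1437149_at (-0.49 ± 0.09) and 1421346_a_at (-0.81 ± 0.12) and higher by 1420148_at (3.92 ± 0.26) and 1449751_at (4.05 ± 0.36). As for Slc5a3, the direction depended on the probe set.

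The single regional call in organoids was Slc6a6 1421346_a_at, with 10.12 and 9.91 in medulla organoids, against 10.97 and 10.69 in cortex organoids (-0.81 ± 0.16, adjusted p = 0.0078). It had an adjusted p of 0.142 in a fit of the organoid arrays alone and 0.0749 without cortex organoid replicate 1. The dimmer 1420148_at had 8.83 and 9.93 in medulla organoids, against 10.61 and 10.45 in cortex organoids (-1.13 ± 0.37, adjusted p = 0.0663), and 1449751_at had 7.58 and 9.38, against 9.86 and 9.58 (-1.20 ± 0.51, 0.147). Both were called without medulla organoid replicate 2 (-1.67, adjusted p = 0.00451, and -2.05, adjusted p = 0.00566). The brightest probe set, 1437149_at, differed by -0.02 ± 0.13. Fibroblast and feeder markers were higher in medulla organoids: their summed signal was 7799 to 7911 in medulla organoids, against 2030 to 2450 in cortex organoids, with 7 of 8 called higher in medulla. Their part in the Slc6a6 differences was not tested.

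Slc6a12 encodes the betaine transporter BGT1, the member whose promoter window held the consensus printed above. Its 1 probe set, 1449382_at, had 3.02 and 3.26 in medulla tissue, against 1.40 and 2.95 in cortex tissue. It had 0.67 and 0.91 in medulla progenitor cells, against 1.69 and 1.88 in those of the cortex, and 4.07 and 3.17 in medulla organoids, against 2.51 and 1.68 in cortex organoids. All 12 values lay below the array median, so it did not pass the brightness filter, no difference was tested and none is drawn. No detection calls were used, so the probe set is described as dim and not as absent.

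Nfat5 encodes the factor itself, and its 6 probe sets fell into unequal groups by stage. Probe set 1438999_a_at had 9.99 and 9.34 in medulla tissue, against 8.69 and 8.81 in cortex tissue. It had 9.67 and 9.73 in medulla progenitor cells, against 9.61 and 9.62 in those of the cortex, and 10.88 and 10.45 in medulla organoids, against 10.12 and 9.95 in cortex organoids. By this probe set both medulla arrays lay above both cortex arrays in every stage. None of these differences was called: 0.89 ± 0.21 in tissue (adjusted p = 0.176), 0.09 ± 0.21 in progenitor cells and 0.62 ± 0.21 in organoids (adjusted p = 0.0747). The tissue difference was called without medulla tissue replicate 2 (1.21, adjusted p = 0.0268). The organoid difference was called without medulla tissue replicate 1 or 2 (adjusted p = 0.0397 and 0.0386) or without medulla organoid replicate 2 (0.84, 0.0151), where 1439328_at was called as well (1.57, 0.0171). Probe set 1426029_a_at ran the other way in tissue (-0.29 ± 0.30, adjusted p = 0.953) and in progenitor cells, where it had 5.61 and 5.28 in medulla, against 6.45 and 6.45 in cortex (-0.80 ± 0.30, adjusted p = 0.88), also without a call.

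Nfat5 was the member with probe sets called higher in progenitor cells than in tissue, averaged over both regions. The differences were 0.44 ± 0.15 (1438999_a_at, adjusted p = 0.0221), 0.64 ± 0.21 (1426029_a_at, 0.0185), 0.95 ± 0.30 (1448966_a_at, 0.0133), 1.12 ± 0.22 (1451921_a_at, 0.000637) and 1.10 ± 0.25 (1439805_at, 0.00189). Probe set 1439328_at did not pass (0.32 ± 0.31, adjusted p = 0.394). The brightest, 1438999_a_at, had means of 9.70 in medulla progenitor cells and 9.67 in medulla tissue. In cortex they were 9.61 and 8.75, so its difference lay in the cortex samples. Probe sets 1426029_a_at, 1439805_at, 1448966_a_at and 1451921_a_at were below the array median on every tissue array, so their differences start from dim signals. Probe sets 1448966_a_at and 1451921_a_at were tested only because they were bright in organoids. Without the brightness filter their adjusted p was 0.0185 and 0.00115 (limma). In cortex tissue 1448966_a_at had 2.32 and 5.17, an unequal pair. The calls of 1438999_a_at, 1426029_a_at and 1448966_a_at were lost in some fits. For 1438999_a_at the adjusted p was 0.0761 and 0.0723 under quantile and 75th percentile scaling, 0.0658 without cortex tissue replicate 1, 0.0978 without medulla tissue replicate 2, 0.055 and 0.0582 without cortex progenitor replicate 1 or 2, and 0.0621 without medulla progenitor replicate 2. For 1426029_a_at it was 0.0543 with the median signal as offset, 0.0701 without medulla tissue replicate 2 and 0.063 without medulla progenitor replicate 1. For 1448966_a_at it was 0.0587, 0.0603 and 0.0521 without cortex tissue replicate 1, cortex progenitor replicate 1 or medulla progenitor replicate 2.

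In organoids 3 Nfat5 probe sets rose far more than the rest. Probe set 1426029_a_at had 4.40 to 5.36 in tissue, 5.28 to 6.45 in progenitor cells and 10.13 to 10.86 in organoids. Probe set 1448966_a_at read 2.32 to 5.47, 5.68 to 6.56 and 9.85 to 11.01 in the same order, and 1451921_a_at read 3.06 to 5.31, 5.76 to 5.93 and 9.86 to 10.26. Every organoid array lay above every other array for these 3. Organoids against progenitor cells gave 4.16 ± 0.21 (adjusted p = 6.53e-09), 4.05 ± 0.30 (1.28e-07) and 3.85 ± 0.22 (1.59e-08), while 1438999_a_at rose by 0.68 ± 0.15 (0.00135). Probe sets 1448966_a_at and 1451921_a_at were tested only because they were bright in organoids, and without the brightness filter their adjusted p was 1.19e-07 and 1.88e-08. Probe sets 1439328_at (0.35 ± 0.31, adjusted p = 0.338) and 1439805_at (0.52 ± 0.25, adjusted p = 0.081) did not pass. The first passed without medulla organoid replicate 2 (0.65, adjusted p = 0.0476). The second passed without cortex progenitor replicate 1 (0.74, adjusted p = 0.026), with the median signal as offset (0.0434) and without a variance trend (0.0463).

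Unlike Slc5a3 and Slc6a6, no Nfat5 probe set was lower in organoids than in tissue. The differences were 1.12 ± 0.15 for 1438999_a_at, 4.80 ± 0.21 for 1426029_a_at, 4.99 ± 0.30 for 1448966_a_at, 4.98 ± 0.22 for 1451921_a_at and 1.61 ± 0.25 for 1439805_at. Probe set 1439328_at (6.01 to 6.41 in tissue, 6.24 to 6.95 in progenitor cells and 5.83 to 8.19 in organoids) did not pass (0.66 ± 0.31, adjusted p = 0.0697). It passed without cortex organoid replicate 1 (0.93, adjusted p = 0.0223) or medulla organoid replicate 2 (0.97, 0.00597).

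The split between probe sets of 1 gene can be set against other genes. Of all 27748 tested probe sets 1200 (4.32%) were higher by more than 3 in organoids than in progenitor cells, and 7 of the 17 member probe sets were among them. The cut of 3 was chosen with the member values known. Of the 7, 4 had passed the brightness filter only through organoids, the stage that makes the rise, and 2 of those share a source sequence. The 7 of 17 is therefore a description and not a test. Among 2826 genes with at least 3 tested probe sets the median range of the organoid minus progenitor difference within a gene was 2.21. The range was 3.96 for Slc5a3 (86.7th percentile), 4.55 for Slc6a6 (92.3rd) and 3.81 for Nfat5 (84.5th). In progenitor cells against tissue the median range was 1.22, and the same genes had 0.40 (7.64th percentile), 1.45 (62.3rd) and 0.81 (27.5th). A range can grow with the number of probe sets (3, 4 and 6 here), and the percentiles were not matched for it. The wide ranges of these 3 genes appeared with the comparisons that hold the organoid arrays. Those arrays had low poly-A controls, the highest Gapdh 3' minus 5' value of the stages and the lowest actin value. Slc14a2, with 2 probe sets, went otherwise, with a range of 3.29 in progenitor cells against tissue and 0.25 in organoids against progenitor cells. The part of what these controls measure in the ranges was not tested, and whether the probe sets measure different transcript ends was not analysed here. With only the brightest probe set of each member, an alternative chosen after seeing the data, 4 of 5 tested members were called in organoids against progenitor cells, 3 higher and 1 lower, where 71.7% of all tested probe sets were called.

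The brightest tested probe sets of the members were compared over the 12 arrays, which share stage, region and preparation, so the correlations describe the pattern only. Slc14a1 1448640_at and Slc14a2 1425250_a_at had a Pearson r of 0.93, and each had 0.86 with Slc5a3 1435484_at. Slc5a3 1435484_at and Slc6a6 1437149_at had 0.84. Nfat5 1438999_a_at ran between -0.25 and -0.16 with the other 4. With dimmer probe sets the sign of the Nfat5 correlations depended on the probe set. Nfat5 1438999_a_at had 0.65 with Slc5a3 1422170_at. Nfat5 1426029_a_at had 0.85 with Slc5a3 1422170_at but -0.32 with Slc5a3 1435484_at. It had 0.91 with Slc6a6 1420148_at but -0.62 with Slc6a6 1421346_a_at.

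The 3 genes whose pattern was most like each member's over the 12 arrays were then named by the same measure. For Slc14a2 they were Corin (r = 0.985), a membrane protease, with mean log2 signals of 10.34 in medulla tissue, against 4.22 in cortex tissue, and Igfbp2 (0.970) and the homeobox gene Uncx (0.941). For Slc14a1 they were Mrps6 (0.946), Uncx (0.942) and Elfn1 (0.940). Those for Slc5a3 were Tmem86a (0.985), the peptide gene Edn3 (0.972) and Mfsd4a (0.969). Slc6a6 was most like Tmbim6 (0.995), the glutathione transferase gene Gstm1 (0.993) and Igha (0.991). Nfat5 was most like Cyfip2 (0.963), the transcription factor gene Sim2 (0.958) and Serbp1 (0.946). For Uncx the means were 7.20 in medulla tissue, against 1.70 in cortex tissue, and at most 2.82 in the cultures.

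Other genes of the pathway came from 7 written lists, each gene by its brightest probe set. In tissue 0 of the 59 tested list genes were called between medulla and cortex by limma, where 0.162% of all tested probe sets were called, and 9 had an unadjusted p under 0.05. In organoids 15 of the 59 were called between regions, where 13.4% of all tested probe sets were called, and in progenitor cells 1 was (0.169%). Between stages 43 of the 59 were called in progenitor cells against tissue (66.7% of all tested probe sets). In organoids 37 were called against progenitor cells (71.7%) and 47 against tissue (79.3%). The stage counts of each list below are to be read against these shares, and a count near its share is no result about the list.

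Enzymes that make or break down osmolytes were mostly lower in culture. Of 11 measured genes of 16 listed, 9 fell and 1 rose in progenitor cells against tissue, with a median of -1.84 against 0.14 for all tested probe sets. The largest were Miox, which breaks down inositol (-10.45 ± 0.22), Bhmt, which uses betaine (-6.04 ± 0.36), and Cdo1 (-5.66 ± 0.16) and Csad (-3.79 ± 0.20), which act in taurine synthesis. Proximal tubule markers, a list that also holds Miox, fell in 7 of 7 cases in the same comparison, with a median of -8.53. In organoids 5 rose and 3 fell against progenitor cells, with a median of 0.22 against -0.07. Among them were Cdo1 (2.01 ± 0.16), Gpcpd1, which breaks down glycerophosphocholine (1.11 ± 0.12), Aldh7a1, which makes betaine (-1.06 ± 0.26), and Impa1, which makes inositol (0.83 ± 0.11). In organoids against tissue 1 rose and 7 fell (median -2.57 against 0.09). Cdo1 was higher in medulla than cortex in progenitor cells (2.17 ± 0.22, adjusted p = 0.00115) and in organoids (3.40 ± 0.22, adjusted p = 1.43e-05).

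Among 11 measured genes of 12 other tonicity genes, 5 rose and 3 fell in progenitor cells against tissue, with a median of 0.33. They were led by Ranbp3l (-6.16 ± 0.31), the cyclooxygenase gene Ptgs2 (6.11 ± 0.14), the water channel Aqp2 (-5.29 ± 0.25) and S100a4 (2.88 ± 0.19). In organoids 1 rose and 4 fell against progenitor cells (median -0.23), the falls being the amino acid transporter Slc38a2 (-1.46 ± 0.17), Ptgs2 (-1.34 ± 0.14), S100a4 (-0.79 ± 0.19) and Cryab (-0.73 ± 0.22). In organoids against tissue 6 rose and 3 fell (median 0.45).

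Of 16 signalling genes upstream of or around NFAT5, 7 rose and 3 fell in progenitor cells against tissue. Their median of 0.17 lay near the 0.14 of all tested probe sets, of which 66.7% were called. The calls were led by the kinases Stk39 (1.84 ± 0.16) and Oxsr1 (1.07 ± 0.10). In organoids against progenitor cells 6 rose and 8 fell (median -0.29), among them the kinases Fyn (-2.31 ± 0.20), Map2k3 (-2.17 ± 0.11), Map3k3 (1.56 ± 0.13) and Map2k6 (1.21 ± 0.19). In organoids against tissue 7 rose and 5 fell (median 0.38). The 4 calcium-regulated NFAT genes are the relatives of Nfat5. Of them, Nfatc2 fell (-2.18 ± 0.29) and 0 rose in organoids against progenitor cells, Nfatc4 rose (1.0 ± 0.24) in progenitor cells against tissue, and 2 rose and 1 fell in organoids against tissue.

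Related transporters fell in 8 of 9 tested cases in progenitor cells against tissue (11 measured of 12 listed, median -5.06). The largest were those of Slc6a20b (-6.90 ± 0.20) and the GABA transporter gene Slc6a13, which neighbours Slc6a12 (-6.67 ± 0.36). Next came the aquaglyceroporin Aqp3 (-5.86 ± 0.28) and the inositol transporter Slc5a11 (-5.46 ± 0.26). In organoids against progenitor cells 1 rose (Slc6a20a, 1.53 ± 0.20) and 1 fell (Slc6a20b, -0.61 ± 0.20), and in organoids against tissue 8 of 9 fell (median -5.01). Collecting duct markers, a list that also holds Aqp3, and proximal tubule markers fell in the same comparison, in 8 of 8 and 7 of 7 cases. Their part in it was not tested.

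Subunits of the volume-regulated anion channel, which lets osmolytes out of swollen cells, were called in opposite directions. Of 4 measured genes of 5 listed, 3 rose in progenitor cells against tissue (Lrrc8c 1.74 ± 0.19, Lrrc8e 1.52 ± 0.34 and Lrrc8a 0.26 ± 0.10). In organoids against progenitor cells Lrrc8e rose (1.33 ± 0.34) and 3 fell (Lrrc8c -1.93 ± 0.19, Lrrc8a -1.37 ± 0.10 and Lrrc8d -0.35 ± 0.13), and in organoids against tissue 1 rose (Lrrc8e, 2.85 ± 0.34) and 2 fell. Among 4 tested enzymes of arginine and urea, of 5 measured, the arginase gene Arg1 rose in progenitor cells against tissue (2.68 ± 0.22) while Agmat (-3.00 ± 0.31) and Asl (-2.11 ± 0.19) fell. In organoids against progenitor cells the arginase genes Arg2 (1.87 ± 0.15) and Arg1 (1.83 ± 0.22) rose and Asl fell (-0.79 ± 0.19). In organoids against tissue Arg1 (4.51 ± 0.22) and Arg2 (1.69 ± 0.15) rose and Asl (-2.90 ± 0.19) and Agmat (-2.47 ± 0.31) fell. Arg1 was lower in medulla than in cortex organoids (-3.11 ± 0.32, adjusted p = 0.000181).

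**Figure D4:**
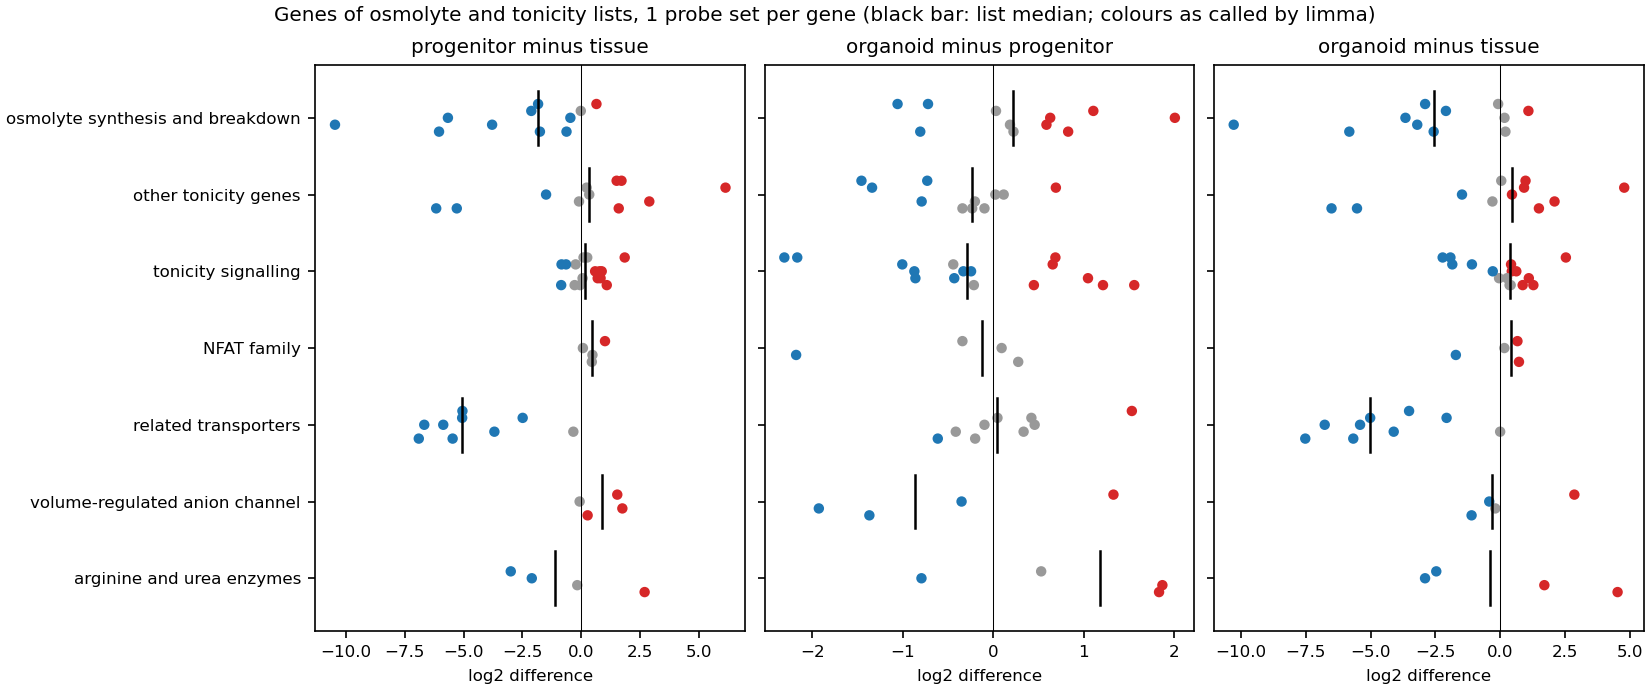
Log2 differences (horizontal axis, whose scale differs between panels) of the tested genes of 7 lists (rows) in 3 stage comparisons, 1 point per gene, red where called higher, blue where called lower, grey where not, with a black bar at the list median. The medians of the related transporters lie at -5.06 in progenitor cells against tissue and -5.01 in organoids against tissue.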

How the data were processed

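RNA of 12 samples was measured on Affymetrix mouse arrays of the 3' type, with labelled cRNA made by a 3' IVT kit, per the labels' protocols. The deposited values are log2 signals per probe set made with MAS5, per the submitters' processing notes, with no version stated there. The mean of the linear signals, trimmed by 2% at both ends, was 500 on every array. No sample column was left unused. Depth does not apply to arrays, and their number limits the precision.

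Of 45101 probe sets 64 controls were left out. The platform annotation gave 1 symbol to 34945 of the rest, several to 932 and none to 9160, and 34754 single symbols matched a current gene. Signals were unlogged, 15.2 signal units (the 25th percentile) were added, and log2 was taken. R 4.3.3 with limma 3.58.1 fitted 6 group means on 12 arrays (6 residual degrees of freedom, variance trend, median prior degrees of freedom 5.98). A probe set was tested where some group had both of its arrays above their medians (27748 probe sets), with Benjamini-Hochberg adjustment and a threshold of 0.05. The model was tested on simulated data. Python 3.11.15 with pandas 2.3.3 and matplotlib 3.10.9 made tables and figures.

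The members, lists and naming rule were chosen with earlier results of these data known. Named are all members, up to 4 called genes per list and comparison with the largest difference, and the 3 genes most like each member's brightest tested probe set (highest mean of log2(signal + offset), the scale of all correlations). Markers are described beside the result they move with. Of the list of osmolyte enzymes, Akr1b1, Akr1b3, Sord, Isyna1 and Impa2 were not analysed here. Alternatives were 2 scalings, 2 offsets, 2 filters, 1 probe set per gene, fits restricted to the compared groups, a fit without variance trend, a replicate block and leaving out each array. Promoter windows came from RefSeq, and those of Slc6a6, Slc14a1 and Slc14a2 were not used here. Equal replicate numbers did not pair the samples.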

Additional observations from a re-analysis of the deposited data

Results flagged for a closer look

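The region difference of Slc14a2 1425250_a_at differed between stages by a test of the difference itself. It was 0.67 ± 0.50 in progenitor cells and 5.82 ± 0.50 in tissue (log2, SE), and the progenitor difference minus the tissue difference was -5.16 (adjusted p = 0.0143, limma). In culture both regions were below the array median, so the difference compares dim with bright signals. The probe set was tested only because it was bright in medulla tissue, and its adjusted p was 0.0255 without the brightness filter. The call was lost with an offset of 1 (adjusted p = 0.181), without a variance trend (0.0634) and in 6 of 12 fits that left out 1 array (0.0769 to 0.107).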

How the results depend on the processing

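Of 913 values recomputed for the 44 called member differences, 874 kept their direction and call, 39 kept the direction without the call and 0 reversed. Of the 385 recomputed on all arrays, 10 lost the call. Counts of member probe sets called follow in the order progenitor minus tissue, organoid minus progenitor and organoid minus tissue (13, 11 and 16 in the reported fit). They were 5, 4 and 5 with probe sets above the median on all arrays, which tests fewer members, and 5, 4 and 5 with 1 probe set per gene. Leaving out 1 array gave 11 to 13, 10 to 13 and 15 to 17. With only the brightest probe set of each member, chosen after seeing the data, organoid minus progenitor gave 4. Between regions in tissue the count of 2 became 1 with probe sets above the median on all arrays, 0 in a fit of the tissue arrays, 1 without a variance trend and 3 under either scaling, and 1 to 6 without 1 array. In organoids the count of 1 became 2 with the median signal as offset, 0 with 1 probe set per gene, 0 in a fit of the organoid arrays and 0 to 5 without 1 array. For the progenitor against the tissue region difference the count of 1 became 0 with an offset of 1, 0 with probe sets above the median on all arrays, 0 without a variance trend and 0 to 3 without 1 array. For the organoid against the progenitor region difference the count of 0 became 1 under quantile normalization or 75th percentile scaling and 0 to 2 without 1 array. In progenitor cells it was 0 throughout. The cause of these moves was not tested apart from the fewer members or arrays. Scaling to the 75th percentile moved the median of all probe sets by -0.12 (organoid minus progenitor) and -0.22 (organoid minus tissue), so stage differences are relative to that. Quantile normalization made 45.0% of calls higher in the progenitor against tissue region difference, against 58.1% as reported.

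Same-numbered samples did not deviate together: over 15 pairs of groups the correlation of deviations lay between -0.09 and 0.04. With the replicate block the counts were 13, 11 and 16 for the stage comparisons, 2, 0 and 1 for the regions and 1 and 0 for the differences between region differences, as without it.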
